A study of Mus musculus with 6 samples.

Results

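The germ layer and extraembryonic lineage markers are 38 genes that mark the cell types an embryonic stem cell (ESC) can give rise to, chosen by gene symbol from the array's annotation out of 19937 named genes. They comprise 8 genes of primitive and definitive endoderm (Gata4, Gata6, Sox7, Sox17, Foxa2, Hnf4a, Dab2, Pdgfra), 6 basement membrane genes that endoderm makes (Lama1, Lamb1, Lamc1, Col4a1, Col4a2, Sparc) and 6 genes of primitive streak and mesoderm (Eomes, Mixl1, Gsc, Mesp1, Kdr, Evx1). The others are 7 genes of epiblast and neuroectoderm (Pax6, Sox1, Otx2, Hesx1, Nes, Zic2, Pou3f1), 8 of trophoblast (Cdx2, Tfap2a, Tfap2c, Elf5, Hand1, Tead4, Gata2, Gata3) and 3 keratins of simple epithelia (Krt8, Krt18, Krt19). All 38 had a feature on the array, 39 features in all, since Dab2 had 2.

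All 6 arrays measured total RNA of C57Bl/6 mouse ESCs that stably carried GRgp-Y118F, a chimeric receptor that joins the outer part of the receptor for granulocyte colony-stimulating factor (GCSF) to the signalling part of gp130, with the tyrosine of the SHP2 and ERK branch changed (Y118F). There were 2 arrays of untreated control cells, 2 of cells labelled GCSF (GCSF for 1 h) and 2 of cells labelled LIF/PD (leukaemia inhibitory factor with 1 uM PD0325901, a MEK inhibitor, for 1 h), and the treated cells had been kept 6 h without serum. All groups carry the receptor. The sources used here do not say whether the controls were also deprived of serum or whether the receptor line is 1 clone. Nor do they state that replicates were separate cultures, so the p-values describe the spread between these arrays alone, and that spread may be technical.

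Early in mouse development the blastocyst segregates trophoblast and primitive endoderm from the epiblast, and the epiblast then forms the germ layers. GATA6, SOX17 and their partners specify primitive endoderm, whose parietal derivative secretes a thick basement membrane of laminin and collagen IV. CDX2, EOMES, TFAP2C and ELF5 act in trophoblast, while EOMES, MIXL1 and MESP1 mark cells of the primitive streak and PAX6 and SOX1 mark neural progenitors. LIF acts through STAT3 to hold ESCs undifferentiated, whereas ERK signalling favours exit from that state, and many of these factors are silent or low in undifferentiated cells.

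Pluripotency transcripts matched the labelled cell type: the features of Pou5f1, Sox2 and Nanog lay between the 96.9th and 99.1th percentiles of all features outside the array's control block. Socs3, a target of STAT3, checks the stimulus, and its brighter feature rose under both labels, by 3.13 ± 0.07 under GCSF and 2.62 ± 0.07 under LIF/PD (log2, limma adjusted p = 2.70e-07 and 1.21e-06). The dimmer feature lay 0.51 ± 0.08 and 0.39 ± 0.08 above control, the latter without passing. This is the direction both labels call for. Dusp6 and Spry4, which ERK signalling induces, check the inhibitor label. Under the GCSF label Dusp6 fell by 1.56 ± 0.04 (log2, SE of the limma fit, n = 2 arrays per group) and Spry4 fell by 1.83 ± 0.06, while in those labelled LIF/PD they lay 0.03 ± 0.04 and 0.05 ± 0.06 from control. The values of Dusp6 and Spry4 go against the labels of the treated groups, so every direction below is given for the arrays that carry a label. The number of arrays, and not a read depth, limits the precision. Fewer cells of a type and less RNA per cell cannot be told apart in such bulk samples.

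Some of the markers lay low on these arrays. Features with a mean log2 intensity of at least 6.70, the 40th percentile of the 28187 features outside the control block, were tested, and 30 of the 38 markers had a feature above this filter. The 8 below it were Sox7 and Sox17, factors of endoderm, Mesp1, Kdr and Evx1 of mesoderm, Hesx1 of the anterior neural plate, and Tfap2a and Elf5 of trophoblast. By its definition the filter leaves out 40% of all features outside the control block, a larger share than of the markers. As a reading of background, 95% of 1023 features of olfactory receptor genes, which ESCs are not known to use, had means under 6.45. Sox17, Mesp1, Evx1, Hesx1 and Elf5 lay under that value. The 99th percentile of these olfactory features was 7.36, and 27 of them passed the filter. Of the tested markers Gata4, Foxa2, Hnf4a, Mixl1, Cdx2 and Gata3 had means under 7.36, so they too lay near background. Each feature has its own affinity, so these positions show only which values are close to background and give no order between genes.

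**Figure D1:**
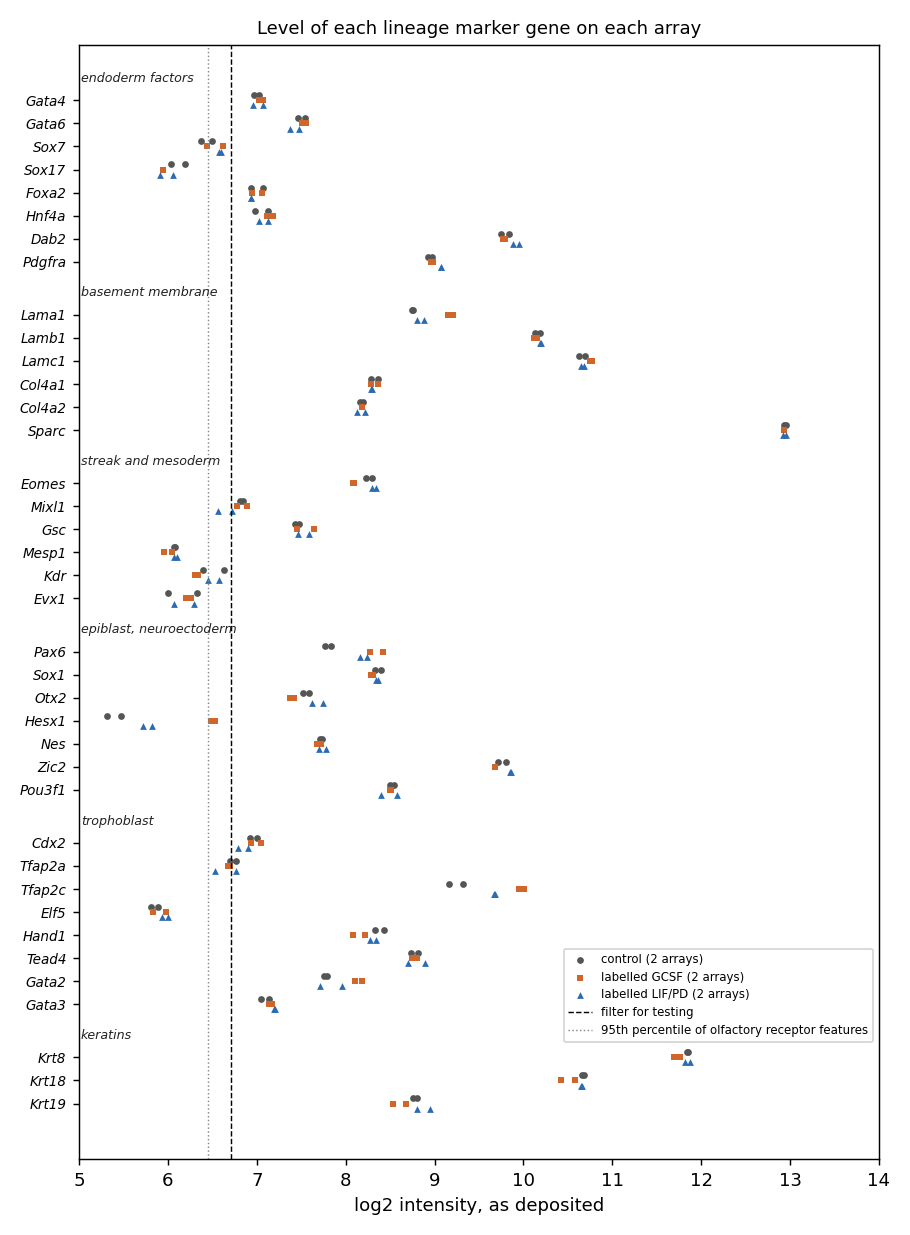
Log2 intensity as deposited (horizontal axis) of the 38 lineage markers (vertical axis, grouped by lineage, Dab2 by its brighter feature) on each of the 6 arrays, with circles for control, squares for the arrays labelled GCSF and triangles for those labelled LIF/PD. The dashed line is the filter at 6.70 and the dotted line the olfactory reference at 6.45; the 3 groups lie close together for most genes and apart for Hesx1, Pax6, Tfap2c and Lama1.

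In the arrays labelled GCSF, 3 of the 30 tested markers rose against control and 0 fell. They were Tfap2c of trophoblast, Pax6 of neuroectoderm and Lama1 of basement membrane. Over all 16912 tested features 0.804% were called higher and 0.367% lower. The 3 genes belong to 3 different lineages, and in each lineage the other tested members did not pass. The median log2 difference of the 30 markers was -0.00 against 0.01 for all features, and their median absolute difference was 0.06 against 0.06. At an unadjusted p under 0.05 there were 10 of the 30, against 12.1% of all features. The members were chosen with earlier results of these data known, so such shares, here and below, do not test the list. Both arrays labelled GCSF lay above both controls for 7 of the 30 and below them for 9, against 23.7% and 18.2% of all features.

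Against control, 0 of the 30 tested markers were called in the arrays labelled LIF/PD with limma, where 0.065% of all features were called. At an unadjusted p under 0.05 there were 4, Pax6, Tfap2c, Dab2 and Pdgfra, against 6.59% of all features. Both treated arrays lay above both controls for 9 of the 30 and below them for 3, against 24% and 14.4% of all features. The median log2 difference was 0.02 over the markers and 0.01 over all features. Both comparisons use the same control arrays, so their values are given side by side and are not counted as agreeing.

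**Figure D2:**
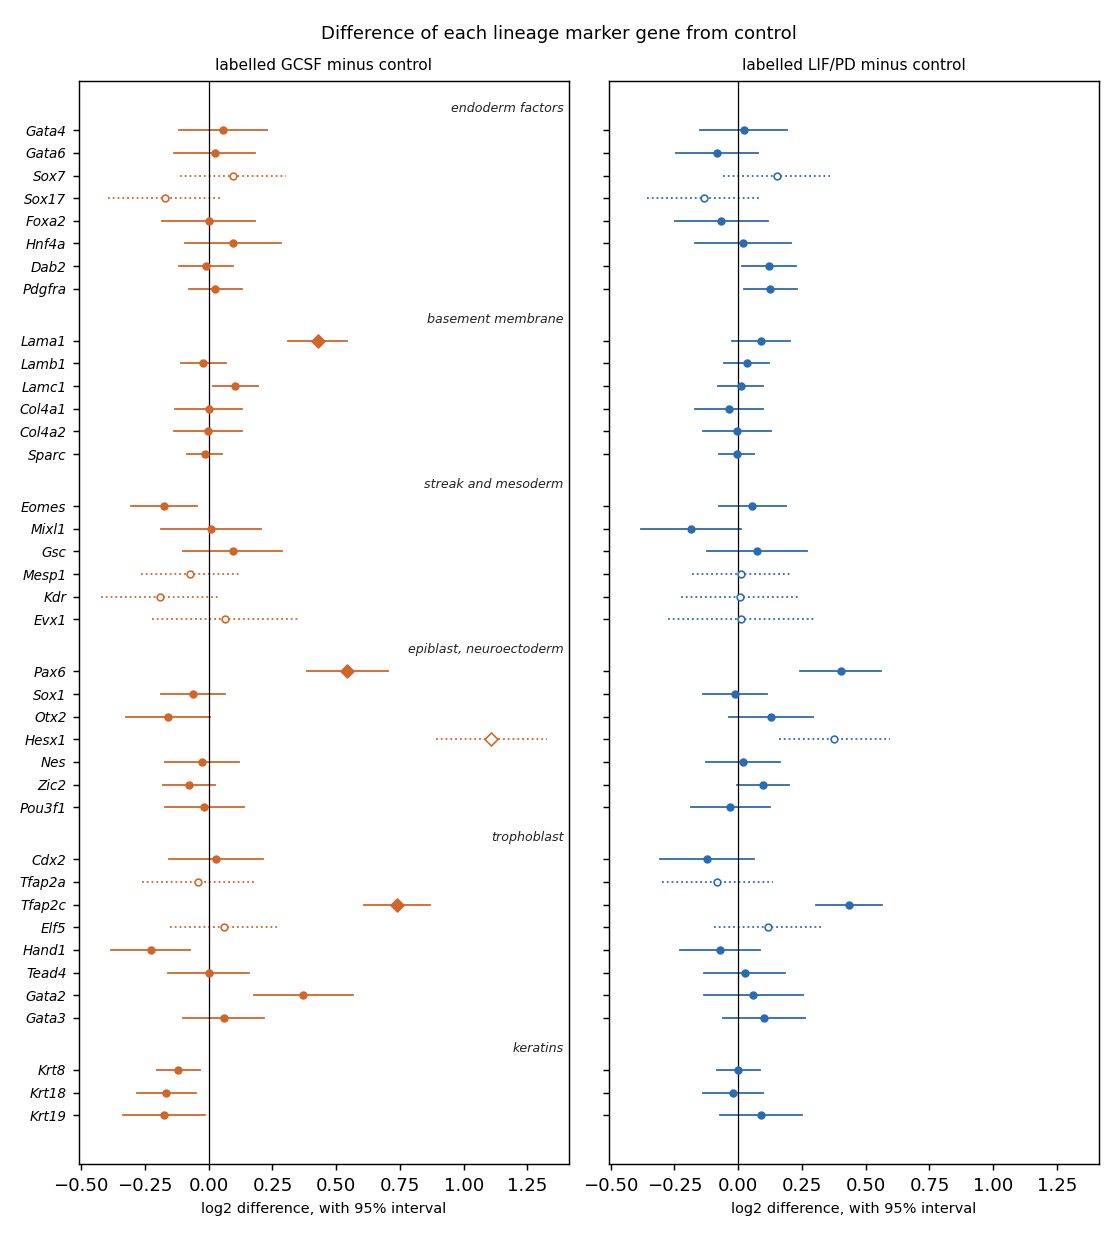
Log2 difference from control of each lineage marker (horizontal axis, same scale in both panels) with its 95% interval, for the arrays labelled GCSF (left) and LIF/PD (right). Diamonds passed at an adjusted p under 0.05, filled symbols come from the filtered fit, and open symbols with dotted bars are markers below the filter, taken from the fit of all 28187 features; on the left Tfap2c, Pax6 and Lama1 stand apart. Open symbols rest on values near background and their sizes, that of Hesx1 included, are not measured changes.

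Promoter windows of RefSeq (build GRCm38.p6, 250 bases before to 50 after a start) were searched on both strands for the STAT motif TTCNNNGAA and the AP-1 motif TGANTCA, because gp130 signals through STAT3 and ERK. Of the 38 markers 25 had a window, 36 windows in all; Tfap2c and Lama1 were not among them. The STAT motif stood in 2 of the 36, those of Otx2 and Dab2, against 8.30% of all 32851 windows, and the AP-1 motif in 0 against 7.81%. A match is a description only, and the absence of these letters from a window says nothing of the factors. The 61 bases around each match are shown with the motif in capitals, together with the 250 bases before a start of Hesx1 and Pax6, whose values follow and which held neither motif and are all in lower case. They are 5′ to 3′ on the strand of the gene.
Otx2, chr14:48665188-48665248, minus strand: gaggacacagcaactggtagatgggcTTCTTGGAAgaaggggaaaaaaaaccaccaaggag
Dab2, chr15:6299691-6299751, plus strand: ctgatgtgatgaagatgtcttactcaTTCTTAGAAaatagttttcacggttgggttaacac
Hesx1, chr14:27000112-27000361, plus strand: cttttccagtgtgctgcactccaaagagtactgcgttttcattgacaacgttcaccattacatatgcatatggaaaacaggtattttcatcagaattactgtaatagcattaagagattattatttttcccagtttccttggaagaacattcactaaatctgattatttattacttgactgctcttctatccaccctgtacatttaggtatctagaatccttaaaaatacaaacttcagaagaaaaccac
Pax6, chr2:105668646-105668895, plus strand: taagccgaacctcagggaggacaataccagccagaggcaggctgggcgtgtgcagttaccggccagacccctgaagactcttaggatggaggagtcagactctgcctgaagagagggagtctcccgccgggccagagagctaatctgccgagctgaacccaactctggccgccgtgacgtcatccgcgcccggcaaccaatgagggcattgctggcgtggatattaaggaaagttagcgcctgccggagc

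Hesx1 encodes a homeobox repressor required for the forebrain and pituitary. Its control arrays read 5.48 and 5.31, under the GCSF label 6.53 and 6.48, and under the LIF/PD label 5.72 and 5.82. The 3 groups did not overlap, with the arrays labelled LIF/PD between the others. Its mean of 5.89 lay below the filter, so it was not tested in the main fit. When all 28187 features were tested, Hesx1 was called higher in the arrays labelled GCSF (n = 2 arrays per group, limma adjusted p = 0.00129), in a fit that called 0.433% of features higher. Both the control arrays and those labelled LIF/PD lay under the olfactory reference of 6.45, so the size of the rise is not given. The mean of the arrays labelled GCSF lay 1.04-fold above that reference. This distance of 0.06 log2 is smaller than the SE of 0.10 in the fit of all features. The reference comes from features of other genes, so it sets no minimum for Hesx1. Under the LIF/PD label Hesx1 did not pass (limma adjusted p = 0.641), and no fold is given, since both groups lay under the reference. The call in the arrays labelled GCSF held with each array left out, with adjusted p between 0.00597 and 0.0188 from limma.

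Pax6 encodes a paired-box factor of eye and neural progenitors. It read 7.77 and 7.83 in control, 8.27 and 8.41 under the GCSF label, and 8.24 and 8.16 under the LIF/PD label. Both treated groups lay above both control arrays. The rise in the arrays labelled GCSF was 1.46-fold (0.54 ± 0.07 log2, n = 2 arrays per group, limma adjusted p = 0.00715), rank 57 of 16912 from the highest. It did not pass without control replicate 1 (0.51 ± 0.09, limma adjusted p = 0.0817). Under the LIF/PD label the difference of 0.40 ± 0.07 ranked 32 of 16912 and did not pass (limma adjusted p = 0.182). The difference between the treated groups was -0.14 ± 0.07, with a 95% interval from -0.30 to 0.02 and a limma adjusted p of 0.482.

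The other tested genes of epiblast and neuroectoderm did not pass in any comparison. Otx2, a homeobox factor of primed epiblast and anterior neural tissue, read 7.52 and 7.59 in control, 7.38 and 7.42 under the GCSF label and 7.75 and 7.62 under the LIF/PD label. Its groups did not overlap, with the arrays labelled GCSF lowest and those labelled LIF/PD highest. The differences from control were -0.16 ± 0.07 and 0.13 ± 0.07, and the difference between the treated groups was 0.29 ± 0.07 (limma adjusted p = 0.146). Zic2, a zinc finger gene of epiblast and neural plate, read 9.71 and 9.80 in control, 9.68 and 9.67 under the GCSF label and 9.84 and 9.86 under the LIF/PD label, with 0.17 ± 0.04 between the treated groups (limma adjusted p = 0.149). Sox1, which marks neural progenitors, the intermediate filament gene Nes and the POU factor gene Pou3f1 had differences from control between -0.06 and 0.02 under both labels.

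Tfap2c encodes AP-2 gamma, a factor of trophoblast and of primordial germ cells. It read 9.32 and 9.16 in control, 10.00 and 9.95 under the GCSF label and 9.67 and 9.67 under the LIF/PD label. The groups did not overlap and the arrays labelled LIF/PD lay between the others. The rise in the arrays labelled GCSF was 1.67-fold (0.74 ± 0.06 log2, n = 2 arrays per group, limma adjusted p = 0.000446), rank 22 of 16912. Under the LIF/PD label the difference was 0.43 ± 0.06, also rank 22, and did not pass (limma adjusted p = 0.0654). Between the treated groups it was -0.31 ± 0.06 (limma adjusted p = 0.0581).

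Gata2, a zinc finger factor of trophoblast giant cells and blood progenitors, read 7.76 and 7.79 in control, 8.11 and 8.18 under the GCSF label and 7.95 and 7.71 under the LIF/PD label. The arrays labelled GCSF lay above all others, and those labelled LIF/PD lay on both sides of control. The differences from control were 0.37 ± 0.08 (limma adjusted p = 0.105) and 0.06 ± 0.08. The former passed when the features of each gene were averaged and genes were tested in place of features (adjusted p = 0.0320 with limma). Between the treated groups Gata2 differed by -0.31 ± 0.08 (limma adjusted p = 0.174), lower in the arrays labelled LIF/PD. Its paralogue Gata3 lay 0.06 ± 0.07 and 0.10 ± 0.07 from control.

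Hand1, a basic helix-loop-helix gene of giant cells and of extraembryonic mesoderm, read 8.33 and 8.43 in control, 8.09 and 8.22 under the GCSF label and 8.27 and 8.34 under the LIF/PD label. Its difference in the arrays labelled GCSF was -0.23 ± 0.07 (limma adjusted p = 0.218), the lowest of any tested marker in that comparison. Cdx2, the homeobox gene that specifies trophectoderm, lay 0.03 ± 0.08 and -0.12 ± 0.08 from control. Tead4, the TEAD factor that acts before Cdx2, lay 0.00 ± 0.07 and 0.02 ± 0.07 from control. Tfap2a and Elf5 lay below the filter, between 6.53 and 6.77 and between 5.81 and 6.00 on the 6 arrays. Of the 6 tested trophoblast genes 1 passed in the arrays labelled GCSF. With limma, 3 had an unadjusted p under 0.05, against 12.1% of all features. In that comparison 5 lay above control and 1 below, against 9084 and 7828 of the 16912 features tested. Of the 5, Tead4, Cdx2 and Gata3 lay only 0.00, 0.03 and 0.06 above control. The median difference of the 6 genes was 0.04 against 0.01 for all features, and their median absolute difference was 0.14 against 0.06.

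The keratins Krt8 and Krt18, which pair into the intermediate filaments of simple epithelia and trophectoderm, and Krt19 were lower in the arrays labelled GCSF without passing. Krt8 read 11.85 and 11.84 in control, 11.70 and 11.76 under the GCSF label and 11.82 and 11.87 under the LIF/PD label. Krt18 read 10.68 and 10.66, then 10.43 and 10.58, then 10.64 and 10.65 in the same order. Krt19 read 8.76 and 8.80, then 8.53 and 8.68, then 8.80 and 8.94. For each of the 3 the arrays labelled GCSF lay below every other array. As above, 18.2% of all features had both arrays labelled GCSF below both controls. The share of features with those arrays below every other array was not computed. The differences were -0.12 ± 0.04, -0.17 ± 0.05 and -0.18 ± 0.07, with limma adjusted p of 0.236, 0.230 and 0.372. Krt18 passed only without GCSF replicate 2 (-0.24 ± 0.04, limma adjusted p = 0.0480). Under the LIF/PD label the differences were 0.00 ± 0.04, -0.02 ± 0.05 and 0.09 ± 0.07. Between the treated groups they were 0.12 ± 0.04, 0.14 ± 0.05 and 0.27 ± 0.07, with limma adjusted p of 0.233, 0.318 and 0.166.

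**Figure D3:**
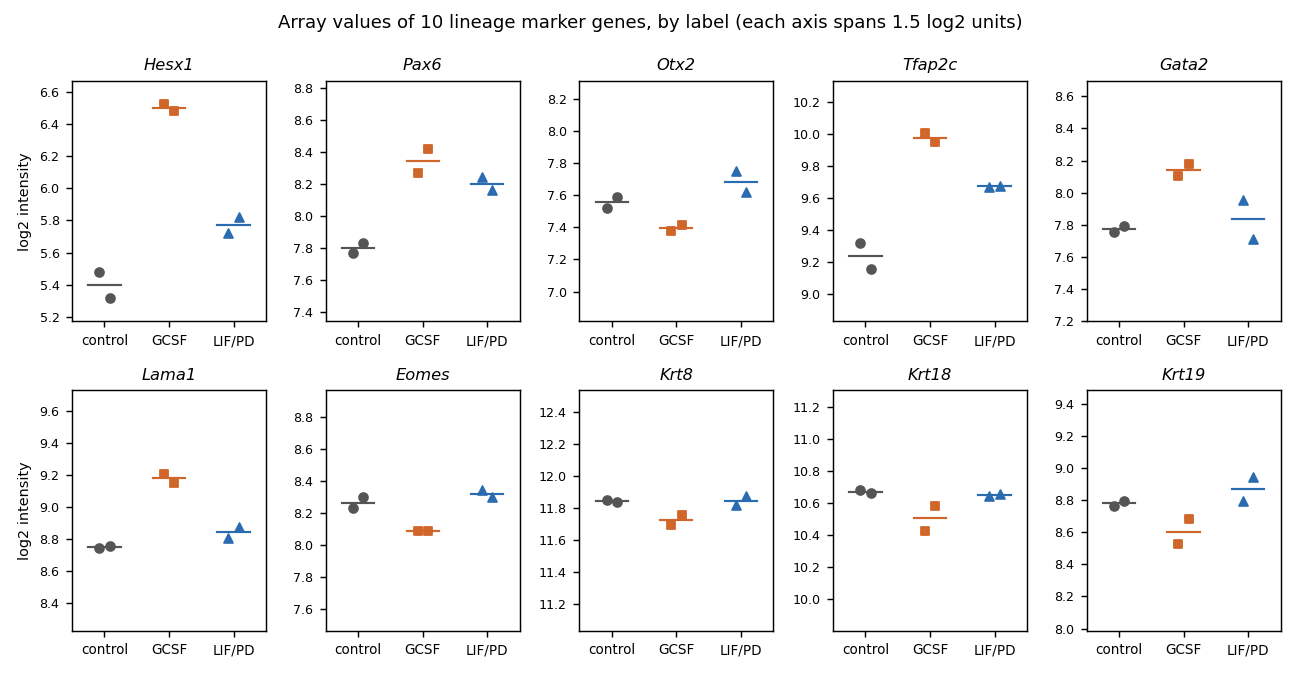
Log2 intensity (vertical axes, each spanning 1.5 units, so equal distances are equal differences) of 10 lineage markers on each array, by label (horizontal axis), with a bar at each group's mean of 2 arrays. Hesx1, Pax6, Tfap2c, Gata2 and Lama1 are highest in the arrays labelled GCSF, and Otx2, Eomes, Krt8, Krt18 and Krt19 are lowest there; only the rises of Pax6, Tfap2c and Lama1 passed in the filtered fit.

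Lama1 encodes the laminin alpha 1 chain, which joins the products of Lamb1 and Lamc1 in the laminin of the earliest embryonic basement membranes. It read 8.75 and 8.76 in control, 9.21 and 9.15 under the GCSF label and 8.81 and 8.88 under the LIF/PD label. The groups did not overlap. The rise in the arrays labelled GCSF was 1.35-fold (0.43 ± 0.05 log2, n = 2 arrays per group, limma adjusted p = 0.00437), rank 100 of 16912. It did not pass without control replicate 1 (0.42 ± 0.07, limma adjusted p = 0.0592). Under the LIF/PD label the difference was 0.09 ± 0.05 (limma adjusted p = 0.805).

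The partner chains did not pass with Lama1. Lamb1 lay -0.02 ± 0.04 from control in the arrays labelled GCSF and 0.03 ± 0.04 in those labelled LIF/PD. Lamc1 read 10.62 and 10.69 in control, 10.77 and 10.74 under the GCSF label and 10.64 and 10.68 under the LIF/PD label, a difference of 0.10 ± 0.04 in the former (limma adjusted p = 0.336). Col4a1 and Col4a2, the neighbouring genes of the main collagen IV chains, each lay -0.00 ± 0.06 from control in the arrays labelled GCSF. Sparc, a matrix glycoprotein abundant in parietal endoderm, lay -0.02 ± 0.03 and -0.01 ± 0.03 from control. Fibroblasts make collagen IV and SPARC as well. Of 12 tested fibroblast markers 1, Col3a1, was called higher in the arrays labelled GCSF (0.29 ± 0.05, limma adjusted p = 0.0410), where 0.804% of all features were. In that comparison 5 of the 12 lay above control and 7 below, with a median difference of -0.01. The mean log2 level of the 14 fibroblast features was 9.36 and 9.38 in control, 9.37 and 9.35 under the GCSF label and 9.38 and 9.34 under the LIF/PD label. A part of fibroblasts in the Lama1 result was not tested.

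None of the 6 tested endoderm genes passed in any comparison with limma, and in the arrays labelled GCSF 0 of them had an unadjusted p under 0.05. Gata6, which initiates the primitive endoderm programme, lay 0.02 ± 0.07 and -0.08 ± 0.07 from control, and Gata4, which acts with it, 0.06 ± 0.08 and 0.02 ± 0.08. The forkhead gene Foxa2 lay -0.00 ± 0.08 and -0.07 ± 0.08 from control, and the nuclear receptor gene Hnf4a 0.10 ± 0.08 and 0.02 ± 0.08. The 95% intervals of these 4 genes reach at most 0.28 above control. Pdgfra, a growth factor receptor of primitive endoderm, read 8.97 and 8.92 in control and 9.07 and 9.07 under the LIF/PD label (0.13 ± 0.05, limma adjusted p = 0.719). The brighter feature of Dab2, an endocytic adaptor of that lineage, read 9.84 and 9.75 in control and 9.95 and 9.88 under the LIF/PD label (0.12 ± 0.05, limma adjusted p = 0.719). Between the treated groups this feature differed by 0.13 ± 0.05 (limma adjusted p = 0.319), higher in the arrays labelled LIF/PD. The dim feature of Dab2 lay between 4.29 and 4.48 on all arrays.

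None of the 3 tested genes of primitive streak and mesoderm passed. Eomes, a T-box factor of the streak and of trophoblast, read 8.23 and 8.30 in control, 8.09 and 8.09 under the GCSF label and 8.34 and 8.30 under the LIF/PD label. The arrays labelled GCSF were below all others. The difference from control there was -0.18 ± 0.06 (limma adjusted p = 0.262), and between the treated groups it was 0.23 ± 0.06 (limma adjusted p = 0.142). Mixl1, a homeobox gene of the streak, lay 0.01 ± 0.09 and -0.18 ± 0.09 from control, and Gsc, a homeobox gene of the organizer, 0.09 ± 0.09 and 0.07 ± 0.09. Mesp1, Kdr and Evx1 lay below the filter on average.

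The direct comparison of the treated groups asks where the labels differ, and 1 of the 30 tested markers was called. It uses the same treated arrays as the comparisons with control, so its calls are not separate from theirs. Lama1 was lower in the arrays labelled LIF/PD than in those labelled GCSF (-0.34 ± 0.05, limma adjusted p = 0.0232), where 0.443% of all features were called lower and 0.402% higher. It did not pass with any 1 of the 6 arrays left out (limma adjusted p 0.0566 to 0.191), with only the arrays of the 2 groups in the fit (0.0602) or without an intensity trend in the variances (0.0548). In the fit of all 28187 features, where 0.227% were called lower, Hesx1 was also called lower (limma adjusted p = 0.0181). The size is not given, since the arrays labelled LIF/PD lay under the olfactory reference. The call of Hesx1 was lost when GCSF replicate 1 or 2 or LIF/PD replicate 1 or 2 was left out. In all, 11 of the 30 markers had an unadjusted p under 0.05, against 11.8% of all features, and the median absolute difference was 0.10 against 0.05. Since the members were chosen with earlier results known, these values describe the list and do not test it. The groups did not overlap for 12 markers higher in the arrays labelled LIF/PD and 9 lower there, against 22.4% and 19.1% of all features.

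**Figure D4:**
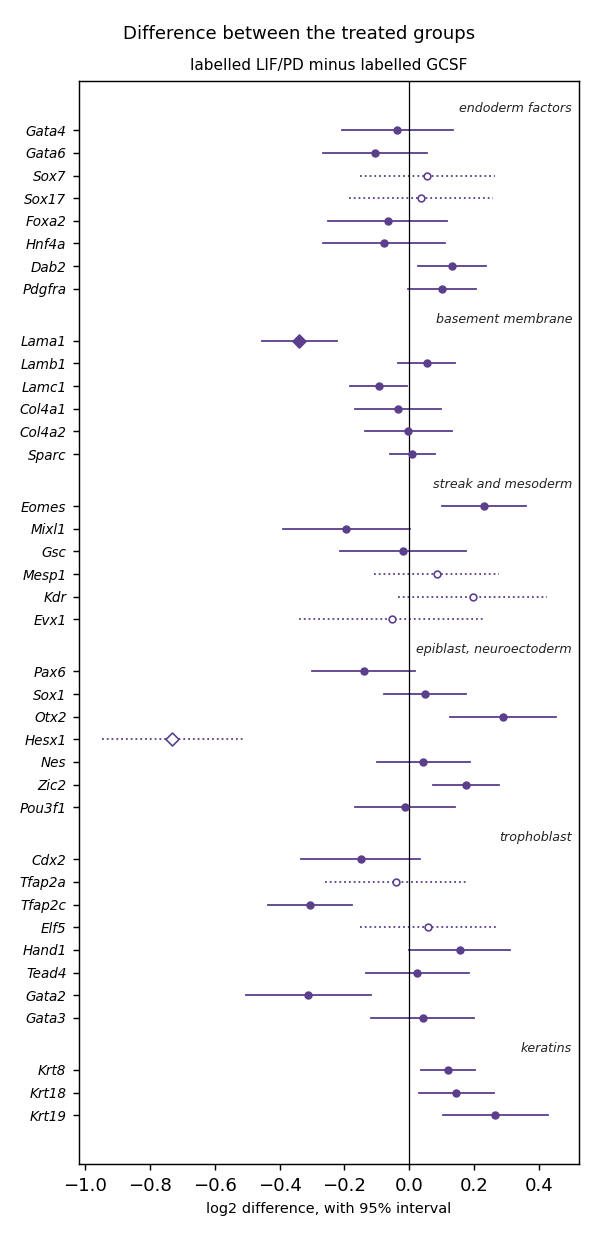
Log2 difference of the arrays labelled LIF/PD from those labelled GCSF for each lineage marker (horizontal axis), with its 95% interval; diamonds passed and open symbols with dotted bars are markers below the filter, from the fit of all features. Of the tested markers Lama1 lies lowest and is the one called, the open diamond is Hesx1, whose size is not a measured change, and Otx2, Krt19 and Eomes are the highest of the tested ones without passing.

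Further genes of the same lineages were set beside the markers. These lists too were chosen with earlier results known, so counts here and in the next paragraph do not test them. Of all features 0.804% were called higher and 0.367% lower under the GCSF label, and 0.065% were called under the LIF/PD label. Between the treated groups 0.402% were called higher and 0.443% lower in the arrays labelled LIF/PD. Of 10 tested further endoderm genes 0 passed in any of the 3 comparisons (1, 0 and 1 at an unadjusted p under 0.05 with limma). Of 10 tested mesoderm and streak genes Bmp4 alone passed (1, 0 and 1 at an unadjusted p under 0.05 with limma). Bmp4, whose protein induces mesoderm and trophoblast, read 10.41 and 10.42 in control, 9.93 and 10.03 under the GCSF label and 10.49 and 10.52 under the LIF/PD label. It fell by 0.44 ± 0.04 in the arrays labelled GCSF (limma adjusted p = 0.00195) and was higher by 0.52 ± 0.04 in those labelled LIF/PD than in those labelled GCSF (limma adjusted p = 0.00158). Both calls rest on the same arrays labelled GCSF.

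Of 11 tested further epiblast and neuroectoderm genes Olig2 passed against control. At an unadjusted p under 0.05 with limma there were 2, 3 and 5 of the 11 in the 3 comparisons. The shares of all features were 12.1%, 6.59% and 11.8% in the same order, under GCSF, under LIF/PD and between the treated groups. Olig2, a factor of motor neuron and oligodendrocyte progenitors, read 8.51 and 8.47 in control, 8.98 and 8.96 under the GCSF label and 8.76 and 8.89 under the LIF/PD label. It rose by 0.48 ± 0.06 in the arrays labelled GCSF (limma adjusted p = 0.00486). A feature of the zinc finger gene Zic5 was higher in the arrays labelled LIF/PD than in those labelled GCSF (0.25 ± 0.04, limma adjusted p = 0.0405), but its other tested feature was not (-0.06 ± 0.07, limma adjusted p = 0.805). Of 13 tested further trophoblast genes 0 passed against control (2 and 0 at an unadjusted p under 0.05 with limma). The ETS factor gene Elf3 was lower in the arrays labelled LIF/PD than in those labelled GCSF (-0.30 ± 0.05, limma adjusted p = 0.0493).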

How the data were processed

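The deposited table gives 34760 features on 6 single-colour arrays. Its values lie between 2.29 and 14.50 and were taken for log2 intensity, as deposited by the authors, from that range. Per the labels, RNA was taken with TRIzol and labelled with biotin at a core facility, while the background correction, summarization, normalization and log base by which the authors made the log2 values are not given in the sources used here. Array medians lay between 7.11 and 7.16, and the values were used as deposited. Symbols came from the annotation of the platform (21640 features with 1 symbol, 1321 with several, which were left unnamed), and 6573 features before the first annotated one were left out as a control block.

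Group means were fitted to all 6 arrays with limma 3.58.1 in R 4.3.3, with variances moderated along intensity (3 residual and 8.4 total degrees of freedom). The Benjamini-Hochberg adjustment of the two-sided p-values ran over the 16912 features above the 40th percentile of the mean, and calls were made at an adjusted p under 0.05. Errors are SE of the log2 difference. A marker counts as called if any of its tested features is. The fit was tested on simulated data.

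The members and the lists of further genes were chosen with earlier results of these data known. Statistics are given for called markers, the marker with the largest difference in each lineage and comparison, and genes of the further lists that were called; Hesx1, Gata2, Zic2, Hand1, the keratins and other markers described beside them were chosen after their values were seen. Genes of the further lists without a feature of 1 symbol, the brachyury gene among them, were not analysed here. The alternatives were a replicate block, a fit of only the groups compared, other filters, other normalization, other variance models, averaged features and each array left out. Leaving out each array in the fit without a filter was added for Hesx1 after seeing the data.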

Additional observations from a re-analysis of the deposited data

How the results depend on the processing

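Directions of the markers called in each comparison were the same under all alternatives. In the arrays labelled GCSF 3 markers were called in the main fit and 1 to 4 with an array left out, the lowest count being Tfap2c alone without control replicate 1. Tfap2c passed under all 15 alternatives (limma adjusted p 9.93e-06 to 0.00669). Over all features 198 were called there, 125 without an intensity trend and 88 to 164 with an array left out.

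In the arrays labelled LIF/PD 0 markers were called, 1 (Tfap2c) with robust moderation and 2 (Pax6 and Tfap2c) with features averaged per gene, which tests fewer rows; with an array left out the count was 0. Over all features 11 were called, 1 without an intensity trend, 24 with averaging and 1 to 7 with an array left out.

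Between the treated groups 1 marker was called, 2 with the replicate block, with no filter, with robust moderation and with averaging, 0 without an intensity trend, and 0 to 1 with an array left out. The second marker was Tfap2c, or Hesx1 with no filter, and Tfap2c took the place of Lama1 with only the 2 groups in the fit or without a control array. Over all features 143 were called, 82 with only the 2 groups in the fit, 71 without an intensity trend and 30 to 91 with an array left out.

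Replicate numbers are given in the titles, but the labels do not say that they mark a shared culture or day. Differences of replicate 1 from replicate 2 correlated at 0.007, 0.084 and 0.099 between groups over the tested features, so the numbers were not taken to pair the samples. Under the replicate block the same 3 markers were called in the arrays labelled GCSF and 0 in those labelled LIF/PD. Between the treated groups it added Tfap2c (-0.31 ± 0.05, limma adjusted p = 0.0433). With 2 arrays per group and no detection call, differences near background have little precision.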

Other observations

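Among 12 pluripotency genes, which are the counterpart of the lineage markers in undifferentiated cells, 2 rose in the arrays labelled GCSF, where 0.804% of all features were called higher, and 0 passed in those labelled LIF/PD with limma, where 0.065% were called. At an unadjusted p under 0.05 there were 7 and 4 of the 12, against 12.1% and 6.59% of all features. Tdgf1, a Nodal co-receptor gene, and Sall4, a zinc finger factor gene, were the 2 that rose, by 0.30 ± 0.03 and 0.23 ± 0.03 (limma adjusted p = 0.00190 and 0.0163). Between the treated groups 1 gene was called in each direction. Tdgf1 was lower in the arrays labelled LIF/PD than in those labelled GCSF (-0.17 ± 0.03, limma adjusted p = 0.0434), with 12.68 and 12.68 against 12.86 and 12.85, and 12.56 and 12.54 in control. Utf1, a chromatin-associated gene, was higher in the arrays labelled LIF/PD than in those labelled GCSF by 0.23 ± 0.03 (limma adjusted p = 0.0137), with 12.38 and 12.37 against 12.16 and 12.14, and 12.31 and 12.30 in control.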
